A study of Mus musculus with 6 samples.

Results

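The genes described here are 10 genes of naive pluripotency, Nanog, Klf2, Klf4, Klf5, Esrrb, Zfp42, Dppa3, Tfcp2l1, Tbx3 and Nr0b1, taken by symbol from a raw count table of 25239 genes. All 10 were found, and all 10 passed the filter on low counts that left 15256 genes for testing. They were measured by bulk RNA-seq in follicle-enriched organoids made from a G4 RosaLuc mouse embryonic stem cell (mESC) line that carries TRE-Nkx2-1-Pax8 and bTg-NES-BrafV637E-ERT2, in 6 libraries that form 3 groups of 2. The study asked how activation of the Braf oncogene, and then inhibition of the pathways below it, changes thyroid organoids.

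All 3 groups came from the same mESC line, so the line stands for 1 genotype. In this line doxycycline switches on Nkx2-1 and Pax8, factors that set thyroid identity, and the bovine thyroglobulin promoter (bTg) drives a fusion of BrafV637E with the ERT2 domain, so that the oncogene is made in cells in which the thyroglobulin promoter is on and is active only with 4-Hydroxytamoxifen (4OHT). Every group received doxycycline at 1 µg/ml for 5 days, was matured in 8-Br-cAMP, an analogue of cyclic AMP, and was collected at day 31. The cAMP group stayed in 8-Br-cAMP without 4OHT. The 4OHT group received 1 µM 4OHT with 8-Br-cAMP for 5 days. The PD+LY group received, for 3 days, 250 nM of the MEK inhibitor PD0325901 and 5 µM of the PI3K inhibitor LY204002 together with 1 µM 4OHT and 8-Br-cAMP. The methods state that all inhibitor treatments followed several days in 8-Br-cAMP with 4OHT and that 4OHT was then kept on for the 3 days. By this account the PD+LY group had 4OHT for longer than the 5 days of the 4OHT group. This longer time in 4OHT cannot be told apart from the inhibitors here. Each library was a pool of wells, and nothing states that duplicates came from separate differentiations, so p values measure the spread between these libraries, which may be technical.

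Naive pluripotency is the state of the epiblast before implantation and of mESCs kept with LIF, which acts through STAT3. A network of transcription factors holds this state, with Nanog, Esrrb, Klf2, Klf4, Klf5, Tfcp2l1 and Tbx3 as parts of it, and Zfp42 (Rex1) and Dppa3 (Stella) as common markers. Signalling from FGF through MEK and ERK moves cells out of the naive state towards a formative and then a primed state, and PD0325901 is a MEK inhibitor also used in media that hold mESCs in the naive state. Several of these genes, such as Klf4, Klf5 and Tbx3, also have roles in other tissues. The study counts Tfcp2l1 among the genes of its enhanced thyroid differentiation score.

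Measured library depth was 14898409 to 20637959 counts, with scaling factors of 0.990 to 1.01, and 1 count was worth 0.0486 to 0.0667 CPM (counts scaled to a common library size). The floor of 3 counts is 0.146 to 0.200 CPM and covers counting error only, and the lowest count of the 10 genes in any library was 217. Duplicates differed by more than counting error (chi-square over its degrees of freedom 8.48 for cAMP, 4.63 for 4OHT, 18.4 for PD+LY). With 2 libraries against 2, the smallest two-sided p of an exact permutation test is 0.333, so tests rest on the edgeR quasi-likelihood model fitted to all genes and libraries.

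The labels call the material an organoid of embryonic stem cell origin, and markers of both thyroid and pluripotent cells were present. Of 12 thyroid markers 11 were tested and Slc26a4 was not. Their summed level, most of it Tg, ran from 575 CPM (4OHT) to 2000 CPM (PD+LY). Of 10 core pluripotency genes all were above the floor in every library, with a summed level of 3716 to 4275 CPM. Trim28 was the largest part of this sum, at 1233, 1371 and 1564 CPM on average in cAMP, 4OHT and PD+LY. Pou5f1 (Oct4) stood at 674 ± 16.3 CPM (SD, n = 2) in cAMP, 752 ± 2.83 CPM in 4OHT and 707 ± 112 CPM in PD+LY. Transcripts of both kinds were thus present in every library, and in such bulk samples fewer cells of a type and less RNA per cell cannot be told apart.

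By CPM over the 6 libraries, the naive genes lay between the percentiles 47.4 (Nr0b1) and 98.4 (Nanog) of all tested genes, and Klf5 was the second lowest at 78.7. Per length of exon, on the scale of CPM per kilobase, Nanog had the highest level of the 10 in each group, at 160 ± 17.8 (SD, n = 2) in cAMP, then 197 ± 19.6 in 4OHT and then 298 ± 15.2 in PD+LY. Percentiles on this scale are over the tested genes whose symbol matched 1 gene of the GENCODE M21 annotation. Nanog lay at the percentile 98.9 and Nr0b1, the lowest by this measure, at the percentile 68.7. In cAMP the order after Nanog was Zfp42 (87.9), Dppa3 (81.1), Esrrb (60.1), Klf2 (48.7), Klf4 (29.1), Tfcp2l1 (23.5), Nr0b1 (16.6), Klf5 (12.7) and Tbx3 (8.76), all in CPM per kilobase, and no neighbours in this order had overlapping libraries. In 4OHT the first 7 places were the same, and the last were Tbx3 (19.6), Klf5 (17.3) and Nr0b1 (9.95), again without overlap between neighbours. In PD+LY Dppa3 (260) took the second place, Zfp42 (109) and Klf2 (98.9) followed with overlapping libraries, and Nr0b1 (6.13) stayed last.

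The summed CPM of the 10 genes was 1563 and 1468 in the cAMP libraries, 1929 and 1821 in the 4OHT libraries, and 2285 and 2359 in the PD+LY libraries. Both 4OHT libraries thus lay above both cAMP libraries and both PD+LY libraries above both 4OHT libraries, a sum in which Nanog, Esrrb and Tfcp2l1 weigh most. The plot of CPM by library gives each gene on its own axis, and the genes fall into different shapes.

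**Figure D1:**
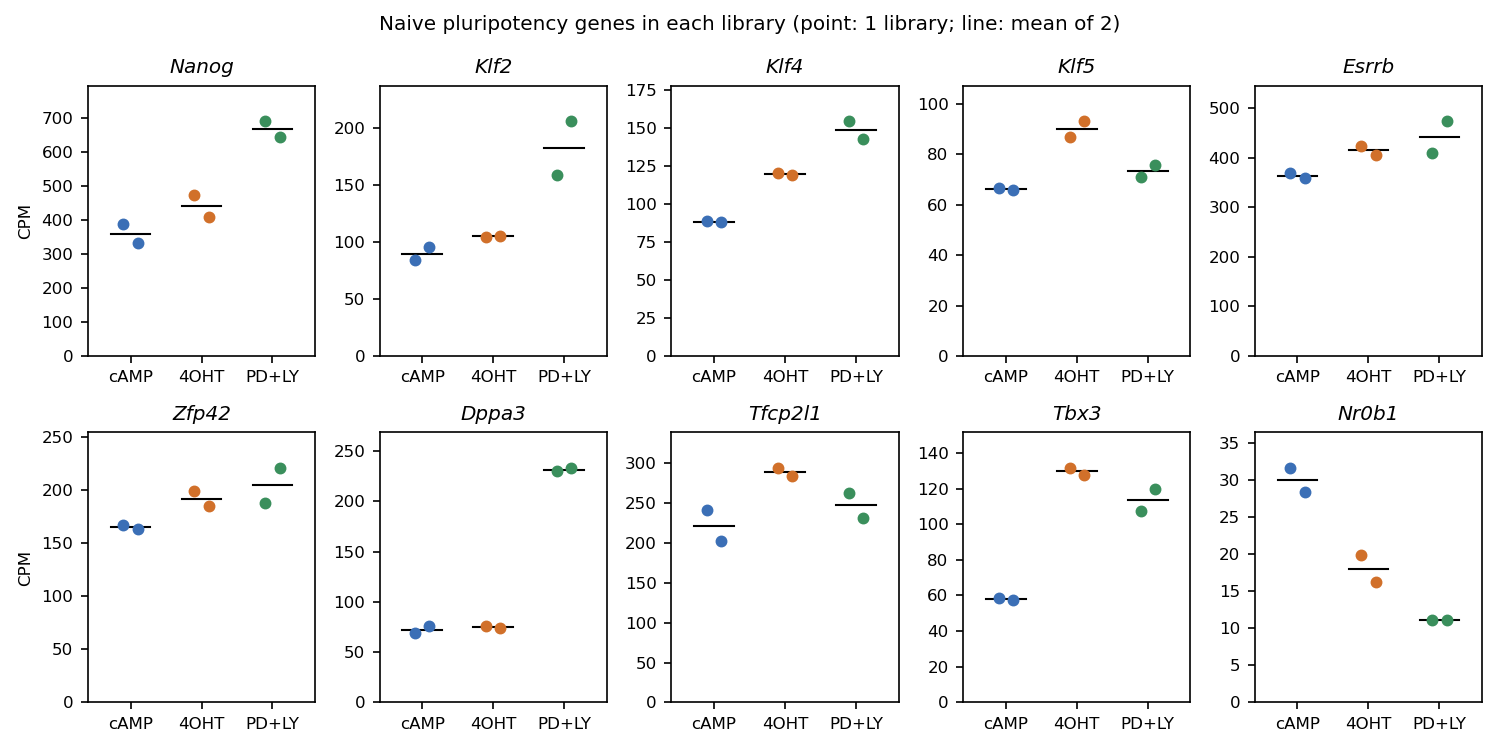
Level of each of the 10 naive pluripotency genes in CPM (linear axis from 0) by group, with 1 point per library and a line at the mean of 2 libraries. Nanog, Klf2, Klf4 and Dppa3 are highest in PD+LY, Klf5, Tfcp2l1 and Tbx3 have their highest mean in 4OHT, Esrrb and Zfp42 change little, and Nr0b1 is highest in cAMP at 28.3 to 31.6 CPM and lowest in PD+LY at 11.1 CPM.

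Where the genes lie and what stands before them gives the setting for these values. On GRCm38 with GENCODE M21, Nanog is at chr6:122707489-122714633 (plus strand) and Dppa3 lies near it at chr6:122626410-122630272 (plus). Klf2 is at chr8:72319033-72321656 (plus), Klf4 at chr4:55527143-55532466 (minus), Klf5 at chr14:99298691-99315036 (plus), Esrrb at chr12:86361117-86521628 (plus) and Zfp42 at chr8:43295063-43306980 (minus). Tfcp2l1 is at chr1:118627945-118685168 (plus), Tbx3 at chr5:119670669-119684724 (plus) and Nr0b1 at chrX:86191764-86195947 (plus).

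Promoters from RefSeq (GRCm38.p6) were read for 7 of the 10 genes, Tfcp2l1, Klf4, Nanog, Zfp42, Klf2, Esrrb and Nr0b1. Klf5, Dppa3 and Tbx3 were not among them. Nanog and Esrrb have a pair of starts each, which gave 9 promoters. Both strands of the 250 bases before each start were searched for 5 short motifs. Of the promoters 4 are printed, those of the 3 genes with a match, with the match in capitals and for Nanog and Esrrb before the upstream start, and that of Nr0b1, the gene that fell in every comparison.

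Nanog, chr6:122707239-122707488, plus strand: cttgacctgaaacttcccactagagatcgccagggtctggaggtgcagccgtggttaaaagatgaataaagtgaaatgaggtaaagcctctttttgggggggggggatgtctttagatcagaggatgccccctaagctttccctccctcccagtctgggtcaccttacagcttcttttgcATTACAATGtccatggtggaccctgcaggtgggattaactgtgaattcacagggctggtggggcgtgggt
Zfp42, chr8:43307010-43307259, minus strand: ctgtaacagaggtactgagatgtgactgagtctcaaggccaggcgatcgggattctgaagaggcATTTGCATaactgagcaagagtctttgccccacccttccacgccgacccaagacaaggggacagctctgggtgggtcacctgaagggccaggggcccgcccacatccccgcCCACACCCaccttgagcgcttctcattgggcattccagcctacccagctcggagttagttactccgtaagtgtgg
Esrrb, chr12:86360867-86361116, plus strand: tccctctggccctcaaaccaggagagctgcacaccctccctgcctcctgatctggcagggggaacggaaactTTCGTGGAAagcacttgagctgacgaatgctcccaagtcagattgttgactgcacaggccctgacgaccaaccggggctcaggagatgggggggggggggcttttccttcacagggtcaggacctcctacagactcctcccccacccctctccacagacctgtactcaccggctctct
Nr0b1, chrX:86191525-86191774, plus strand: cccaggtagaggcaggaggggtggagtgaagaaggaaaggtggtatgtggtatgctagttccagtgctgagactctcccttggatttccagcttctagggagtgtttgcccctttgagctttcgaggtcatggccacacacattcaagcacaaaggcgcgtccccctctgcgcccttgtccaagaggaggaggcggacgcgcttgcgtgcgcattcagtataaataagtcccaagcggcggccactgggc

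The core of the joint SOX and OCT element (CATTGTNAT) was found before Nanog at positions -70 to -62 from the start, on the reverse strand, which is -146 to -138 from its second start at 122707565, and 0.670% of 32851 promoters of the same length hold it. The octamer ATGCAAAT, the letters read by Pou5f1, was found before Zfp42 at positions -186 to -179, and 1.60% of promoters hold it. The KLF motif GGGTGTGG was found before Zfp42 at positions -75 to -68, and 3.20% of promoters hold it. The STAT motif TTCNNNGAA was found before Esrrb at positions -178 to -170, and 7.02% of promoters hold it. The ESRRB motif TCAAGGTCA, held by 0.387% of promoters, was in none of the 7. The end of the SOX and OCT letters can overlap the start of an octamer, but no matches overlapped in these windows. These matches describe the letters in these windows and are not evidence of binding.

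The first comparison, 4OHT against cAMP, asked what changed with 4OHT, which activates BrafV637E. Every library came from the line that carries the BrafV637E fusion, and none received 4OHT without it. Effects of the oncogene and of 4OHT itself thus cannot be told apart in the comparisons against cAMP. Klf4, Klf5, Tfcp2l1 and Tbx3 rose and Nr0b1 fell. Tbx3 more than doubled, while the other rises were 1.30- to 1.36-fold. Of all tested genes 8.39% passed an adjusted p under 0.05 (4.04% higher and 4.35% lower), against these 5 of 10 naive genes. Among differentially expressed genes (DEGs, which also change at least 2-fold), 2.67% of all tested genes were called (1.17% higher and 1.51% lower), and Tbx3 was the only naive gene. The median log2 change was 0.26 over the 10 genes and -0.002 over all tested genes. The groups did not overlap, with 4OHT higher, for 8 of the 10 genes, beside 29.1% of all tested genes, and Nr0b1 was lower without overlap, beside 29.4%.

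Tbx3, a T-box transcription factor of the naive network, had 58.5 and 57.6 CPM in cAMP, 132 and 128 CPM in 4OHT and 108 and 120 CPM in PD+LY. It was low in both cAMP libraries and high in the other 4, and its 4OHT and PD+LY libraries did not overlap. It rose 2.23-fold in 4OHT against cAMP (log2 fold change 1.16, SE 0.10, edgeR quasi-likelihood with Benjamini-Hochberg adjusted p = 6.39e-05) and kept this call without any 1 of the 4 libraries, with log2 changes of 1.14 to 1.18.

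Klf4 and Klf5 are Krüppel-like factors that bind many of the same naive enhancers, and both also act in epithelia. Klf4 had 89.0 and 88.1 CPM in cAMP, 120 and 119 CPM in 4OHT and 155 and 143 CPM in PD+LY, a step upwards in each group without overlap. Klf5 had 66.6 and 65.7 CPM in cAMP, 87.0 and 93.2 CPM in 4OHT and 71.1 and 75.6 CPM in PD+LY, so that 4OHT stood highest without overlap. In 4OHT against cAMP Klf4 rose by a log2 fold change of 0.43 (SE 0.09, adjusted p = 0.0146) and Klf5 by 0.45 (SE 0.10, adjusted p = 0.0185).

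Tfcp2l1, a factor of the grainyhead-like family and a target of STAT3, had 241 and 203 CPM in cAMP, 295 and 284 CPM in 4OHT and 263 and 232 CPM in PD+LY. Both 4OHT libraries were above the other 4, and the cAMP and PD+LY libraries overlapped. It rose by a log2 fold change of 0.38 in 4OHT against cAMP (SE 0.10, edgeR adjusted p = 0.0437). How much of the Tfcp2l1 level came from thyroid cells was not tested.

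Nr0b1 (Dax1), an orphan nuclear receptor without the usual DNA-binding domain that binds Pou5f1 and acts mainly as a repressor, had 31.6 and 28.3 CPM in cAMP, 19.8 and 16.2 CPM in 4OHT and 11.1 and 11.1 CPM in PD+LY. These are the counts 503 and 581, 297 and 295, and 217 and 229, the lowest of the 10 genes in each library, and the 3 groups did not overlap. It fell by 0.74 on the log2 scale in 4OHT against cAMP (SE 0.15, adjusted p = 0.0121). Nr0b1 is also a gene of adrenal and gonadal cells. Of 6 steroidogenic markers 4 were too low to test, Hsd3b1 had no count in any library, Nr5a1 had 2 counts at most, and the summed level was 6.48 to 12.7 CPM. Star, the cholesterol carrier of steroid synthesis, made up most of this sum, with 6.51 CPM on average in cAMP, 5.76 CPM in 4OHT and 11.6 CPM in PD+LY. With PD+LY it rose by a log2 fold change of 1.01 (edgeR adjusted p = 0.00643) where Nr0b1 fell, and whether this bears on Nr0b1 was not tested.

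The other 5 genes did not pass the test in 4OHT against cAMP, and their 95% intervals on the log2 scale show what changes these data leave possible. The interval was 0.07 to 0.52 for Nanog, -0.05 to 0.49 for Klf2, -0.01 to 0.39 for Esrrb, -0.004 to 0.43 for Zfp42 and -0.16 to 0.26 for Dppa3. Of these, Dppa3 had overlapping groups and the other 4 were higher in both 4OHT libraries. Nanog, at an adjusted p of 0.102, came under the threshold when no genes were filtered (0.0179) and when the 2 groups were fitted alone (0.0489).

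The rises of Klf4 and Klf5 passed with both duplicates only. Without cAMP replicate 1, cAMP replicate 2, 4OHT replicate 1 or 4OHT replicate 2 the adjusted p was 0.0915 to 0.155 for Klf4 and 0.105 to 0.212 for Klf5, at log2 changes of 0.43 to 0.44 and 0.40 to 0.50. Tfcp2l1 lost its call without cAMP replicate 2 (log2 change 0.27) or either 4OHT replicate, and Nr0b1 without cAMP replicate 1 or either 4OHT replicate (log2 changes of -0.89 to -0.59), so that 2, 2, 1 and 1 of the 10 genes passed with each of these libraries left out in that order.

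The second comparison, PD+LY against 4OHT, asked what MEK and PI3K inhibition did while the oncogene was active. Dppa3, Klf2, Nanog and Klf4 rose and Nr0b1 fell further. Dppa3 rose most, by 3.10-fold, followed by Klf2 at 1.74-fold and Nanog at 1.51-fold. Of all tested genes 22.7% passed in this comparison (10.7% higher and 12.1% lower), against these 5 of 10 naive genes, and 7.26% were DEGs (2.35% higher and 4.90% lower), with Dppa3 the only naive gene. The median log2 change was 0.09 over the 10 genes and 0.008 over all tested genes. Groups were separate and higher for 4 of the 10 genes and separate and lower for another 4, beside 31.1% of all tested genes in each direction. This comparison shares the 4OHT libraries with the first, so the values of the 2 are not independent. Changes given below as with 4OHT or with PD+LY are those of the first and the second comparison.

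Dppa3 (Stella, PGC7), a maternal and germ cell protein that limits DNA methylation, had 68.6 and 76.1 CPM in cAMP, 75.6 and 74.0 CPM in 4OHT and 230 and 234 CPM in PD+LY. It was level in the first 4 libraries and high in both PD+LY libraries. Its log2 fold change with PD+LY was 1.63 (SE 0.10, edgeR adjusted p = 1.48e-06), and 1.62 to 1.65 without any 1 of the 4 libraries.

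Klf2, a Krüppel-like factor whose protein is marked for breakdown by ERK in mESCs, had 84.3 and 95.5 CPM in cAMP, 105 and 105 CPM in 4OHT and 159 and 206 CPM in PD+LY. Both PD+LY libraries were above the other 4, and they lay further apart than the duplicates of the other groups. It rose by a log2 fold change of 0.80 (SE 0.12, adjusted p = 0.000903), and by 0.60 without PD+LY replicate 2.

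Nanog, the homeodomain factor at the centre of the network, had 388 and 332 CPM in cAMP, 473 and 411 CPM in 4OHT and 692 and 644 CPM in PD+LY. The 3 groups were ordered without overlap. With PD+LY it rose by a log2 fold change of 0.60 (SE 0.10, adjusted p = 0.00184), and Klf4 by 0.32 (SE 0.09, adjusted p = 0.0279), a rise not seen when Klf4 was set against Sox2 (log2 change -0.02).

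Within the Krüppel-like factors the values parted in this comparison. Klf5 had a log2 change of -0.30 with a 95% interval of -0.51 to -0.08 (adjusted p = 0.0506), while the intervals of Klf2 (0.53 to 1.07) and Klf4 (0.12 to 0.52) lay above 0. Klf5 is thus close to the threshold, and passed with another scaling of the libraries (adjusted p = 0.0497) and without PD+LY replicate 2 (0.0312).

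Esrrb, an orphan nuclear receptor that can replace Nanog in parts of its role, had 368 and 359 CPM in cAMP, 424 and 406 CPM in 4OHT and 409 and 474 CPM in PD+LY. Zfp42, the zinc finger gene known as Rex1, had 167 and 164 CPM in cAMP, 199 and 185 CPM in 4OHT and 188 and 221 CPM in PD+LY. Both genes were lowest in cAMP, and their 4OHT and PD+LY libraries overlapped. In PD+LY against 4OHT the 95% interval of the log2 change was -0.11 to 0.29 for Esrrb and -0.13 to 0.31 for Zfp42, and without PD+LY replicate 2 the values were -0.02 and -0.03.

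Tfcp2l1 and Tbx3, which had risen with 4OHT, had log2 changes of -0.23 (95% interval -0.46 to 0.002, adjusted p = 0.138) and -0.19 (-0.40 to 0.02, adjusted p = 0.175) in PD+LY against 4OHT, and both PD+LY libraries were below both 4OHT libraries. Nr0b1 fell by 0.69 on the log2 scale (SE 0.16, adjusted p = 0.00824). Without 4OHT replicate 1 Nr0b1 no longer passed (log2 change -0.54, adjusted p = 0.103), Klf4 also lost its call without that library (adjusted p = 0.151), 4OHT replicate 2 (0.195) or PD+LY replicate 1 (0.0611), and 3 of the 10 genes passed without 4OHT replicate 1. Tfcp2l1 passed without PD+LY replicate 1 (adjusted p = 0.0497).

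**Figure D2:**
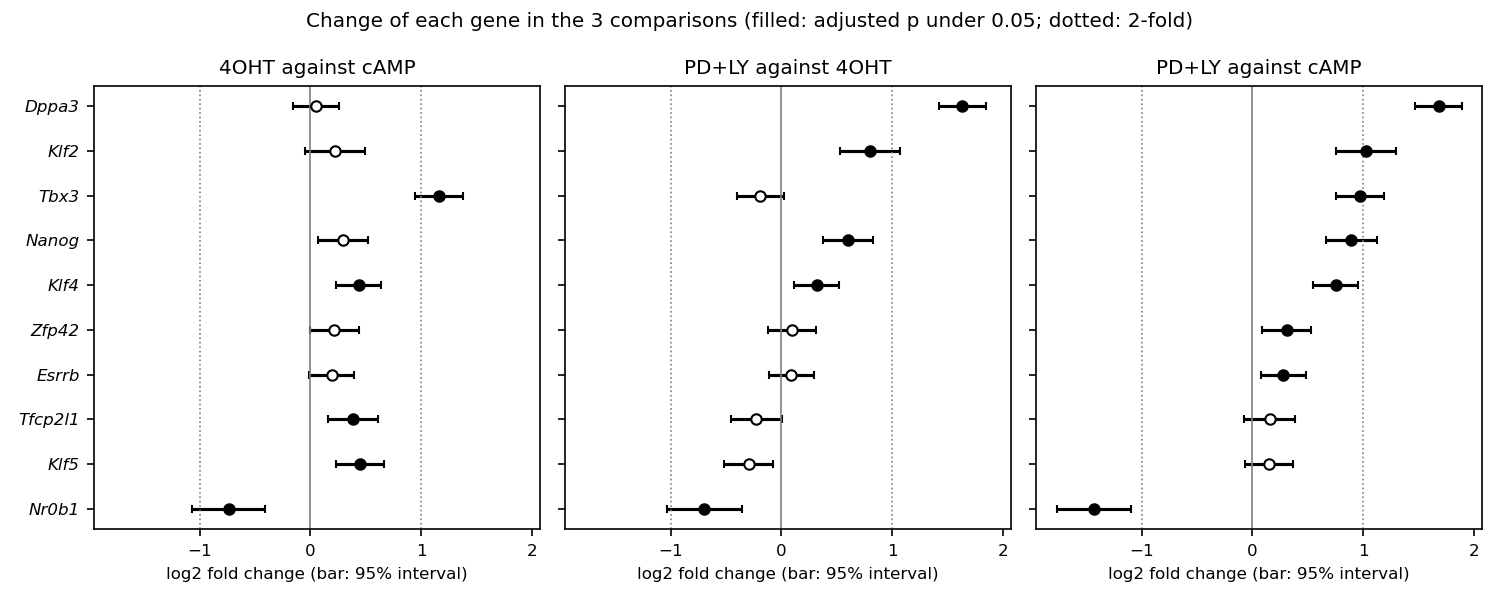
Log2 fold change of each gene in the 3 comparisons, with bars for the 95% interval of the edgeR model, filled points for an adjusted p under 0.05 and dotted lines at a 2-fold change. Tbx3 stands apart in 4OHT against cAMP (1.16) and Dppa3 in PD+LY against 4OHT (1.63), and Nr0b1 lies left of 0 in every panel.

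The third comparison, PD+LY against cAMP, set the treated organoids beside those in which the oncogene was never activated. Dppa3, Klf2, Tbx3, Nanog, Klf4, Zfp42 and Esrrb were higher in PD+LY and Nr0b1 was lower. Of all tested genes 25.7% passed (12.1% higher and 13.7% lower), against these 8 of 10 naive genes, and 9.24% were DEGs (3.00% higher and 6.24% lower), against 3 naive genes, Dppa3 (3.20-fold), Klf2 (2.03-fold) and Nr0b1. The median log2 change was 0.53 over the 10 genes and 0.005 over all tested genes. The libraries did not overlap, with PD+LY higher, for 8 of the 10 genes, beside 30.2% of all tested genes, and Nr0b1 was lower without overlap, beside 31.2%.

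Against cAMP, the log2 fold change was 1.68 for Dppa3 (SE 0.10, edgeR adjusted p = 4.87e-07), 1.02 for Klf2 (SE 0.12, adjusted p = 0.000124) and 0.97 for Tbx3 (SE 0.10, adjusted p = 3.69e-05). Nanog was higher by 0.89 (SE 0.10, adjusted p = 9.39e-05) and Klf4 by 0.75 (SE 0.09, adjusted p = 0.000134). Nr0b1 fell by 1.43 on the log2 scale (SE 0.15, adjusted p = 5.27e-05). Klf2 lay just above the 2-fold line and Tbx3 just below it. Without PD+LY replicate 2 the log2 change of Klf2 was 0.82, and without cAMP replicate 1 it was 0.93. That of Tbx3 was 1.05 without PD+LY replicate 1, and that of Nanog was 1.01 without cAMP replicate 1, so that each of these 3 genes changed sides of the 2-fold line with the library left out.

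Smaller rises were seen for Zfp42 (log2 fold change 0.31, SE 0.10, adjusted p = 0.0408) and Esrrb (0.28, SE 0.09, adjusted p = 0.0441). They did not pass without cAMP replicate 1, cAMP replicate 2 or PD+LY replicate 2, the last with values of 0.19 and 0.17, nor when the 2 groups were fitted alone (adjusted p of 0.0709 and 0.0777). Klf5 (95% interval -0.07 to 0.37) and Tfcp2l1 (-0.07 to 0.39) did not pass. For Klf5 both PD+LY libraries were nevertheless above both cAMP libraries, and for Tfcp2l1 the libraries overlapped.

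To see the naive genes beside a gene that marks pluripotent cells of the naive and the primed kind alike, each was also divided by Pou5f1 in the same library, and then by Sox2, both scales chosen with the values in view. Pou5f1 itself had log2 changes of 0.16 in 4OHT against cAMP (95% interval -0.07 to 0.38), -0.09 in PD+LY against 4OHT (-0.31 to 0.13) and 0.07 in PD+LY against cAMP (-0.16 to 0.29), and passed in none of the comparisons. Dppa3 had 10.4 and 11.1 counts per 100 Pou5f1 counts in cAMP, 10.03 and 9.87 in 4OHT, against 36.7 and 29.7 in PD+LY. Both PD+LY libraries were again far above the other 4, and the 4OHT libraries now lay below those in cAMP.

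Nanog had 58.5 and 48.3 counts per 100 Pou5f1 counts in cAMP, 62.7 and 54.8 in 4OHT, against 110 and 81.9 in PD+LY. Klf2 had 12.7 and 13.9 in cAMP, 13.9 and 14.1 in 4OHT, against 25.4 and 26.2 in PD+LY, so that its duplicates in PD+LY were closer on this scale than in CPM. Tbx3 had 8.83 and 8.39 in cAMP, 17.5 and 17.0 in 4OHT, then 17.2 and 15.2 in PD+LY. On this scale the Nanog libraries of cAMP and 4OHT overlapped and those of PD+LY lay above them, while Tbx3 was low in cAMP alone.

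Relative to Pou5f1, the log2 change in 4OHT against cAMP was 0.28 for Klf4, 0.29 for Klf5 and 0.23 for Tfcp2l1, each smaller than in CPM, and 1.00 for Tbx3. That of Esrrb was 0.03 and that of Zfp42 was 0.06. Nr0b1 had 4.77 and 4.13 counts per 100 Pou5f1 counts in cAMP, 2.63 and 2.16 in 4OHT, then 1.76 and 1.42 in PD+LY, and its groups did not overlap on this scale either.

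Divided by Sox2, another core gene, which rose with PD+LY in CPM, some of the naive genes gave other values. Nanog had 127 and 115 counts per 100 Sox2 counts in cAMP, 179 and 151 in 4OHT, then 207 and 188 in PD+LY, now without overlap between cAMP and 4OHT, and its log2 change with PD+LY was 0.27 per Sox2 against 0.70 per Pou5f1. Klf4 had 45.6 and 43.7 in 4OHT and 46.3 and 42.0 in PD+LY, which overlapped, with a log2 change of -0.02 per Sox2 against 0.41 per Pou5f1. Per Sox2 the log2 changes with PD+LY were -0.25 for Esrrb and -0.24 for Zfp42, where they were 0.18 and 0.19 per Pou5f1. The rise of Klf4 with PD+LY, and the direction of Esrrb and Zfp42, thus depended on the gene used as the reference. Dppa3 with PD+LY (1.30), Klf2 with PD+LY (0.46), Tbx3 with 4OHT (1.31) and Nr0b1 with both (-0.59 and -1.02) kept their direction per Sox2.

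**Figure D3:**
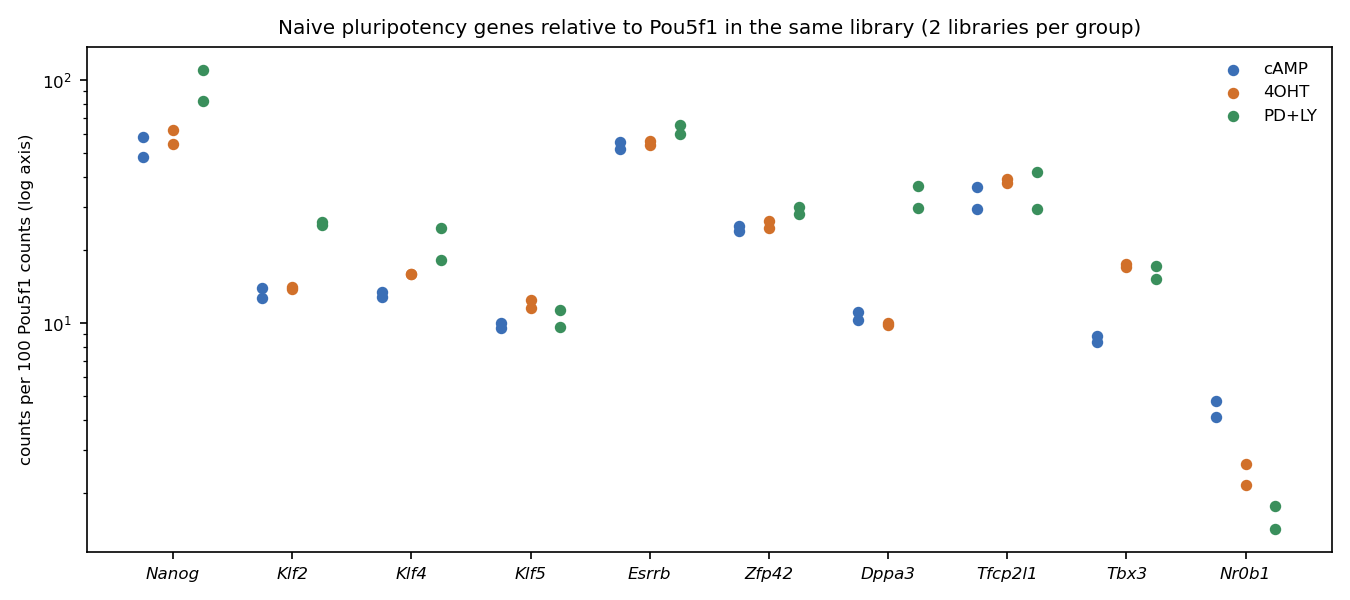
Counts of each naive pluripotency gene per 100 Pou5f1 counts of the same library, on a log axis, with 2 points per group. In PD+LY Dppa3 (29.7 to 36.7) and Klf2 (25.4 to 26.2) stand clear of the other groups, and Nr0b1 goes down from cAMP (4.13 to 4.77) to PD+LY (1.42 to 1.76).

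A list of 12 other naive genes was read beside the 10. In 4OHT against cAMP 2 rose and 1 fell, with a median log2 change of 0.20. Prdm14, which represses FGF receptor signalling and Dnmt3b in mESCs, rose by 0.74 (adjusted p = 0.00414) and Dppa5a by 0.33 (0.0224), while Tdh, the threonine dehydrogenase of mESCs, fell by 0.50 (0.0137). With the inhibitors added to 4OHT 5 rose and 1 fell (median 0.14). Jam2, an adhesion molecule, rose by 1.78 (adjusted p = 1.44e-05), Tdh by 0.80 (0.000340) and Prdm14 by 0.69 (0.00183), and Gbx2, a target of STAT3 at 1.49 to 4.33 CPM on average, fell by 1.54 (0.00723). In PD+LY against cAMP 7 were higher and 1 was lower (median 0.30), with Jam2 at 1.90 and Prdm14 at 1.43.

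Among the 10 core pluripotency genes, which naive and primed cells share, 0 rose and 3 fell in 4OHT against cAMP, 3 rose and 4 fell when the inhibitors were added, and 2 were higher and 5 lower in PD+LY against cAMP. Their medians were -0.19, 0.05 and -0.14. Lin28a, an RNA-binding protein that blocks let-7 maturation, fell by 1.12 and by a further 1.23 (adjusted p = 8.9e-05 and 1.66e-05). Sox2 had 297, 268 and 338 CPM on average in cAMP, 4OHT and PD+LY, and of the 2 steps the rise of 0.33 in PD+LY against 4OHT passed (adjusted p = 0.0154).

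The 12 genes of the formative and primed states had lower medians than the other pluripotency lists. In 4OHT against cAMP 9 fell and 0 rose (median -1.18), between 4OHT and PD+LY 4 fell and 2 rose (median -0.45), and in PD+LY against cAMP 10 were lower and 0 higher (median -2.05). Their summed level was 907 to 930 CPM in cAMP, 520 to 527 CPM in 4OHT and 447 to 482 CPM in PD+LY. Fgf5, a growth factor of the epiblast after implantation, fell by 3.14 in 4OHT against cAMP (adjusted p = 0.000238). Pou3f1 (Oct6) fell by 1.42 (0.00521) and then by 2.00 (0.000717), and Dnmt3b, a de novo DNA methyltransferase, by 0.93 (0.000466) and then by 0.73 (0.000772). Cer1 had 104 and 308 counts in the cAMP libraries, 0 and 2 in 4OHT and 0 and 0 in PD+LY. Otx2 went both ways, falling by 0.84 with 4OHT (adjusted p = 0.000284) and rising by 0.40 with PD+LY (0.00885).

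Of 8 germ cell genes, a list that holds Dppa3 itself, 1 rose and 1 fell with 4OHT, 5 rose and 0 fell with PD+LY, and 4 were higher in PD+LY against cAMP. Dazl, an RNA-binding protein of germ cells, had 60.7 and 51.5 CPM in cAMP, 160 and 134 CPM in 4OHT and 339 and 271 CPM in PD+LY. It rose at both steps, by 1.39 (adjusted p = 0.000119) and 1.06 (0.000231), and Dppa3 passed at the second. Tfap2c rose by 0.70 in PD+LY against 4OHT (adjusted p = 0.000757), and Prdm1, a repressor of somatic genes in primordial germ cells, fell by 0.80 with 4OHT (0.00685) and rose by 1.17 with PD+LY (0.000235). Genes of the two-cell-like state were near the floor, at a summed level of 1.22 to 5.10 CPM over 7 genes, of which 3 could be tested.

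The pathways that act on the naive network were read in the same way. Of 10 LIF and STAT3 genes 4 rose and 1 fell in 4OHT against cAMP, with Lif at 1.09 (adjusted p = 0.00270) and its feedback inhibitor Socs3 at 1.04 (0.000116), and with PD+LY 1 rose and 3 fell, with Lif at -1.46 (0.000169) and Socs3 at -1.56 (2.55e-06). Il6st, the shared receptor chain gp130, went the other way, at -0.33 (0.0493) and 0.71 (0.000337). Of 10 ERK feedback genes 2 rose and 2 fell with 4OHT (median -0.12), with Etv4 at 0.80 and Dusp6 at -0.72 (edgeR adjusted p = 0.0064 and 0.0049). With PD+LY 9 fell and 0 rose (median -2.89), with Spry4 (log2 change -6.33) and Etv4 (-6.18) (adjusted p = 1.18e-07 and 2.98e-08). Of 8 genes known to drive exit from the naive state 1 rose and 1 fell with 4OHT, and 1 rose and 2 fell with PD+LY. In PD+LY against cAMP 0 were higher and 3 lower. Etv4 and Etv5 are on both this list and that of ERK feedback, and with 4OHT Etv4 was the rise and Etv5 the fall. The 2 lists are thus not separate readings.

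**Figure D4:**
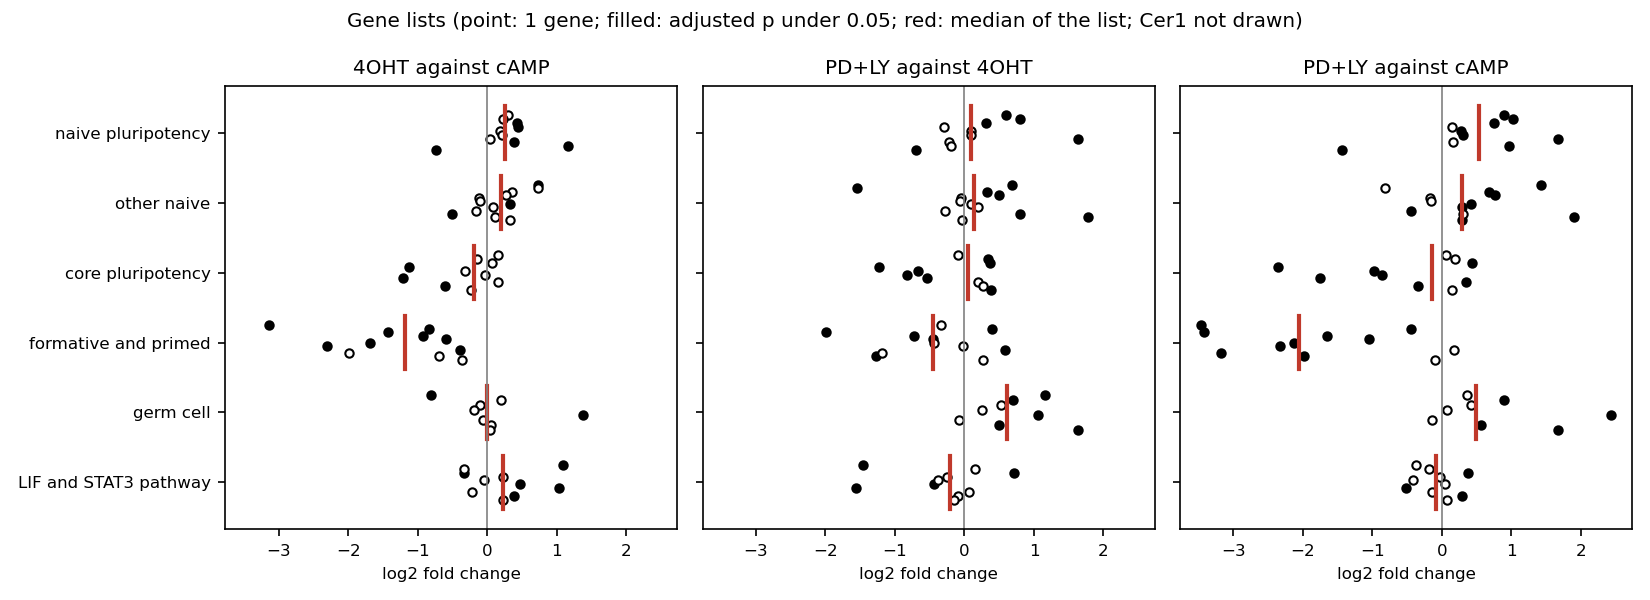
Log2 fold changes of the genes of 6 lists in the 3 comparisons, with 1 point per gene, filled for an adjusted p under 0.05, and a red line at the median of the list. Cer1, at 0 counts in both PD+LY libraries, is not drawn, and Dppa3 is drawn under both naive pluripotency and germ cell genes. The naive genes have medians of 0.26, 0.09 and 0.53, and the formative and primed genes medians of -1.18, -0.45 and -2.05.

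Markers of other cells moved between the same groups, and their part in the values above was not tested. Mesenchymal markers had a summed level of 1379 to 1519 CPM in cAMP, 2472 to 2617 CPM in 4OHT and 4239 to 4986 CPM in PD+LY. Of these, 4 of 12 were higher and 0 lower in 4OHT against cAMP, and 4 higher and 4 lower in PD+LY against 4OHT. Col1a1, Col1a2 and Col3a1 made up most of the sum in PD+LY, at 1345, 1307 and 1336 CPM on average. Among the 4 lower were Vim (log2 change -0.88) and Pdgfrb (-1.265), so the sum does not follow every marker. Epithelial markers, many of them also made by mESCs, had 1307 to 1407, 1039 to 1178 and 939 to 1005 CPM, with 4 of 12 lower and 1 higher, and then 9 lower and 1 higher. Thyroid markers had 1111 to 1660, 575 to 768 and 999 to 2000 CPM, with 3 of 11 lower with 4OHT and 6 of 11 higher with PD+LY. Tg made up most of this sum in each group, and its PD+LY libraries had 1869 and 907 CPM. Endothelial markers, relevant because Klf2 and Klf4 are also endothelial genes, had a summed level of 258 to 308 CPM in all 6 libraries. Of these, 4 of 11 were lower and 1 higher, and then 2 lower and 0 higher, with Emcn too low to test. Pecam1 was the largest part of this sum, at 132, 169 and 152 CPM on average in cAMP, 4OHT and PD+LY. With 4OHT its log2 change was 0.36, against -3.46 for Tie1, -2.31 for Kdr and -1.98 for Cldn5. The sum thus does not follow these single markers.

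Counting without regard to strand and shared sequence bear on some of these genes. Tbx3 shares 115 exon bases with the antisense gene Tbx3os1, and Tfcp2l1 shares 130 exon bases with Gm23497, neither of which is listed in the count table. Dppa3 has 3 processed pseudogenes that are at least 90% identical over at least 100 bases, the closest at 98.2% over 451 bases, and Zfp42 and Nanog have pseudogenes of 98.1% identity over 266 bases and 97.6% over 245 bases. Reads of these copies could not be told apart from those of the genes where the sequences are the same. Short stretches of Nanog matched at least 391 other genes, and those of Tfcp2l1 matched 41. The search kept a limited number of matches for each transcript, so the number for Nanog may be higher. Klf2, Esrrb and Nr0b1 had no match of this kind.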

How the data were processed

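Bulk RNA-seq of 6 libraries was used, 2 for each of cAMP, 4OHT and PD+LY, grouped by the GEO labels. Per the labels and methods, libraries were made with a stranded kit, and the authors trimmed reads, mapped them to mm10 with HISAT2, counted them per gene with HTSeq without strand and deposited raw counts. 5586 of 25239 genes had no count.

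Computed here: filterByExpr (minimum count 10, minimum total 15) kept 15256 genes, counts were scaled by TMM, and 1 quasi-likelihood model of the 3 groups was fitted to all libraries in edgeR 4.0.16 (R 4.3.3), with Benjamini-Hochberg adjustment over all tested genes. The common biological coefficient of variation was 0.105. DEGs passed an adjusted p of 0.05 with a fold change of 2 or more. SEs were taken from the F statistic, and intervals are at 95%. CPM per kilobase used merged exons of GENCODE M21. Similar sequences were found with BLAST+ 2.17.0. The fit was tested on simulated data. DESeq2 1.42.0, RLE scaling, no filter, the 2 groups alone, a replicate block and leaving out each library were alternatives.

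The 10 genes and the other lists were chosen with earlier results of these data known. Named from other lists are Pou5f1, Sox2 and up to 3 passing genes per direction with the largest changes, and otherwise single markers at or near 0 or below the filter (Slc26a4, Hsd3b1, Nr5a1, Emcn), chosen after their values were seen.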

Additional observations from a re-analysis of the deposited data

How the results depend on the processing

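Of the 10 genes' log2 changes in 3 comparisons under other processing with all libraries, 142 kept their direction and side of the threshold, 6 passed in addition and 2 no longer passed. With 1 library left out, whose lone partner is assumed to vary like the other groups, 91 kept both, 24 no longer passed, 2 passed in addition and 3 reversed, none of them called. These were Dppa3 in 4OHT against cAMP (-0.026 without cAMP replicate 1, range -0.026 to 0.13), and without PD+LY replicate 2 Esrrb (-0.020, range -0.020 to 0.19) and Zfp42 (-0.027, range -0.027 to 0.20) in PD+LY against 4OHT. Of 2 scalings added after seeing the data, per Pou5f1 count Dppa3 in 4OHT against cAMP was -0.11. Per Sox2 count Klf4 (-0.017), Esrrb (-0.247) and Zfp42 (-0.243) reversed in PD+LY against 4OHT, and Klf5 (-0.036) and Tfcp2l1 (-0.026) against cAMP.

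With 1 library left out, 1 to 2 naive genes passed for 4OHT against cAMP. For PD+LY 3 to 6 passed against 4OHT and 6 to 8 against cAMP. All genes that passed in 4OHT against cAMP numbered 1280. They were 2186 without a filter, 2307 with the 2 groups alone and 216 to 597 with 1 library left out. With 1 library left out, 1198 to 4158 genes passed in PD+LY against 4OHT, and against cAMP 2351 to 4287 did. The cause was not tested.

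With the replicate number as a block, 2373 genes passed for 4OHT against cAMP, while for PD+LY 4742 passed against 4OHT and 5057 against cAMP. The naive genes that passed in these comparisons numbered 6, 7 and 8. Nanog in 4OHT against cAMP (adjusted p = 0.0136) and Klf5 (0.0236) and Tfcp2l1 (0.0424) in PD+LY against 4OHT then passed. The deviations of same-numbered libraries correlated at 0.197, 0.52 and 0.118 over 10268 genes, but with 2 pairs the numbers were not taken as a pairing. The lowest count of a naive gene was 217.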
